A study of Mus musculus with 11 samples.

Results

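Transcripts of 10 genes of the Bcl2 family were followed in SMB21 cells, a mouse medulloblastoma line. The genes were chosen by name, as the rows for Bcl2, Bcl2l1, Bcl2l2, Mcl1, Bax, Bak1, Bad, Bid, Bcl2l11 and Bbc3 among 22619 genes in a table of read counts. All 10 were present and all 10 passed the low-count filter in every comparison. Poly(A) RNA was sequenced in 11 libraries. The line carries a mutated Ptch1, on the strain background Ptch1tm1Mps/J, and was labelled adult, and all groups share this background. The first group was parental SMB21 treated for 24 h with sonidegib, an inhibitor of Smoothened, the membrane protein that passes on the Hedgehog signal (n = 2). The second was Sufu mutant (n = 2), from clone R13 as replicate 1 and clone R1 as replicate 2. The third was Ofd1mutant (n = 4), from 3 clones, where replicates 1 and 2 are both of clone R14, replicate 3 is of R16 and replicate 4 of R25. The last was untreated parental SMB21 (n = 3). The mutants are cell clones picked out for resistance in a transposon screen, and whether their medium held drug is not stated in the labels. The R14 pair is 1 clone, so a p-value over the 4 Ofd1 libraries measures in part the spread within a clone.

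Proteins of the Bcl2 family decide whether the outer membrane of mitochondria is opened, which lets cytochrome c out and starts the caspases. Bcl2, Bcl2l1 (the protein Bcl-xL), Bcl2l2 (Bcl-w) and Mcl1 keep the membrane closed, while Bax and Bak1 form the pores. Bad, Bid, Bcl2l11 (Bim) and Bbc3 (Puma) are BH3-only proteins, which bind the survival proteins or activate the pore formers. Neurons and their progenitors depend on the survival proteins during the development of the brain, and Bcl2 is known as a gene that Gli transcription factors can induce.

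Levels are given as CPM, counts scaled by the TMM-adjusted library size. Between 24308451 and 38241595 counts were assigned per library, and the 10 genes held 221 to 10870 counts in each. Of the 6 granule cell progenitor markers (Atoh1, Zic1, Zic2, Barhl1, Pax6 and Neurod1), 0 stayed under 1 CPM in any group. The 5 microglial markers together reached at most 0.370 CPM. The 5 astrocyte markers summed to 339.8 to 386 CPM after sonidegib, 100.4 to 119 CPM in Sufu mutants, 125 to 139 CPM in Ofd1 mutants and 182 to 248 CPM in parental cells, with Aqp4 at 0 in every sonidegib, Sufu and parental library. The transcripts of the mutated genes were low but present in the clones. Ofd1 ran from 9.30 to 23.3 CPM in the Ofd1 libraries, against 35.3 to 42.8 CPM in parental cells. Sufu clones R13 and R1 held 2.79 and 17.8 CPM of Sufu, against 27.6 to 29.5 CPM in parental cells. The Ofd1 libraries held 12.0 to 19.4 CPM of Sufu and sonidegib replicate 2 held 5.54 CPM, so R1 lay within the range of the Ofd1 libraries. Sonidegib replicate 2 stood apart from all other libraries. Its levels fell off with transcript length (Spearman's rho = -0.606 across 10357 genes), while rho was 0.00173 to 0.312 in the other 10 libraries. Where a printed difference of the 10 genes, of 0.2 or more in size, changed sign or moved by over 1.5 times without it, that value is given too. A second split lay on the second principal component, which held 17.3% of the variance. Sonidegib replicate 1 and parental replicates 1 and 2 stood at 27.4 to 37.1 on it. Parental replicate 3, at -11.7, lay among the clones, at -14.9 to -3.84, and sonidegib replicate 2 stood at -24.8. The labels do not give a reason for this split, and its cause was not tested.

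Bcl2, the founding survival gene of the family, was the member that varied most between groups. It stood at 65.5 and 68.7 CPM in sonidegib replicates 1 and 2, and at 164 and 134 CPM in Sufu clones R13 and R1. The Ofd1 libraries held 166 and 163 CPM for R14, 137 CPM for R16 and 173 CPM for R25, and parental replicates 1, 2 and 3 held 146, 167 and 188 CPM. Both sonidegib libraries thus lay below all 9 others, and the clones overlapped the parental libraries. The parental mean was 2.49 times the sonidegib mean, the widest gap between group means of any of the 10 genes.

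The log2 difference of Bcl2 after sonidegib was -1.32 ± 0.21 (SE), with a 95% interval of -1.82 to -0.82. It did not pass edgeR's quasi-likelihood test after adjustment over 13809 genes (adjusted p = 0.0847), where it ranked 69 by p. DESeq2 called it, with an adjusted p of 1.53e-06. Without sonidegib replicate 1 it was -1.32, a value that rests on the library that stood apart, and without replicate 2 it was -1.37. Inside the set of libraries that lie close together on the second principal component (sonidegib replicate 1, parental replicates 1 and 2), the difference was -1.28. Each of these values rests on a single sonidegib library. With each library's trend on transcript length removed, it was -0.83 with an adjusted p of 0.215. The summed astrocyte and granule progenitor markers were higher after sonidegib than in parental cells (progenitor markers 2924 to 3147 CPM, against 1774 to 1881 CPM). The astrocyte marker S100b was not higher in mean (10.2 against 10.7 CPM). The astrocyte sum was also lower in the clones than in parental cells, where Bcl2 overlapped. The part of these markers in the difference was not tested. In bulk RNA fewer cells of a type and less RNA per cell cannot be told apart.

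Between the clones and sonidegib-treated parental cells, Bcl2 was higher in the clones. In Ofd1 mutants against sonidegib the log2 difference was 1.26 ± 0.18, with a 95% interval of 0.83 to 1.68, and it passed edgeR's test (adjusted p = 0.0159). All 4 Ofd1 libraries lay above both sonidegib libraries. The call was lost without Ofd1 replicate 2, at 1.24 with an adjusted p of 0.0510, and with the length trend removed, at 0.73 with an adjusted p of 0.0895. In Sufu mutants against sonidegib the difference was 1.16 ± 0.30 with an interval of 0.45 to 1.87, and it did not pass edgeR's test (adjusted p = 0.206), though DESeq2 called it (adjusted p = 0.0240). These comparisons and that of sonidegib with parental cells share the same sonidegib libraries. Against parental cells the Bcl2 difference was -0.06 in Ofd1 mutants, with an interval of -0.35 to 0.22, and -0.16 in Sufu mutants, with an interval of -0.58 to 0.25. Ofd1 and Sufu mutants differed by 0.09 (interval -0.27 to 0.44). Neither interval against parental cells reaches -0.82, the near bound of the sonidegib interval, and these 3 comparisons share the parental libraries. D630008O14Rik overlaps Bcl2 on the opposite strand, and no value of it was used here.

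**Figure D1:**
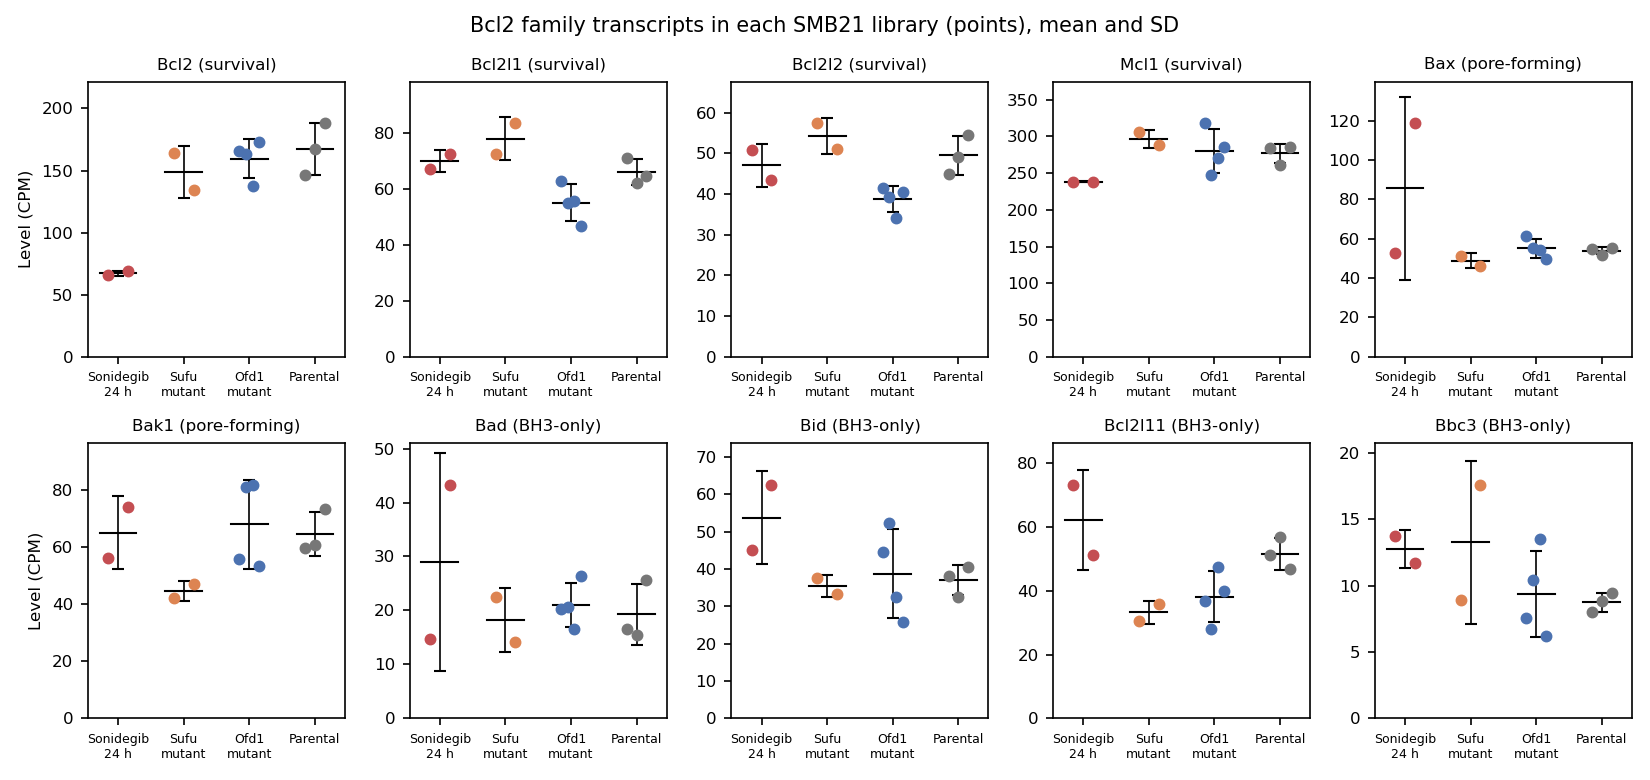
Level of each of the 10 Bcl2 family genes (y axis, CPM from 0) in the 11 libraries, shown as points for sonidegib, Sufu mutant, Ofd1 mutant and parental cells, with the mean (horizontal bar) and SD (error bar). Bcl2 is at 65.5 and 68.7 CPM after sonidegib and at 134 to 188 CPM in all other libraries, and Bax and Bad are far apart in the sonidegib pair.

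The promoter of Bcl2 is shown because Bcl2 is the member called in these data and a known Gli target. The window is the 250 bases before the RefSeq start on GRCm38.p6, chr1:106714291-106714540 on the minus strand, and the capitals mark GC boxes (GGGCGG, or CCGCCC on the other strand), the letters that Sp1 binds.
Bcl2: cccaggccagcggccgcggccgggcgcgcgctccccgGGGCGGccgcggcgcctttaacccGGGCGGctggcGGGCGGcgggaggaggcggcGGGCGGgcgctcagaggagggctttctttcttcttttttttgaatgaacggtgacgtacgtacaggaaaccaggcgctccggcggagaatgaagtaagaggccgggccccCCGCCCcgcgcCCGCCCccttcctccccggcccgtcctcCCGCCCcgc
It holds 7 GC boxes and 74.8% G or C. Of all 32851 promoter windows of this length, 32.7% hold a GC box on either strand, as do 11 of the 16 windows of the 10 genes. The Gli consensus GACCACCCA (TGGGTGGTC on the other strand) is in 0.225% of all windows and in 0 of the 16, which says only that these letters are not in these windows.

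Across the 11 libraries, the genes whose pattern was most like that of Bcl2 were Zfp367, Bard1, Fen1, Rfc5 and Trib2. Likeness was the root mean square difference of log2 CPM, centred on each gene's own mean, among 10938 other genes of at least 5 CPM. It was 0.16 for Zfp367, 0.17 for Bard1, 0.20 for Fen1, 0.20 for Rfc5 and 0.20 for Trib2. Zfp367 stood at 19.5 and 23.7 CPM after sonidegib, and at 43.8 to 58.2 CPM in all other libraries. Gli1, the Hedgehog transcription factor and readout of the pathway, followed Bcl2 only in part. It stood at 7.68 and 8.73 CPM after sonidegib, 231 and 239.8 CPM in Sufu mutants, 70.6 to 187 CPM in Ofd1 mutants and 219 to 242 CPM in parental cells. Ofd1 clone R25 had the lowest Gli1 level of the clones, 70.6 CPM, and the highest level of Gli2, another Gli factor, 609 CPM. Its Bcl2 level, 173 CPM, was the highest of the clones, but close to R14 (166 and 163 CPM) and R13 (164 CPM). Whether Gli factors set the level of Bcl2 here was not tested.

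**Figure D2:**
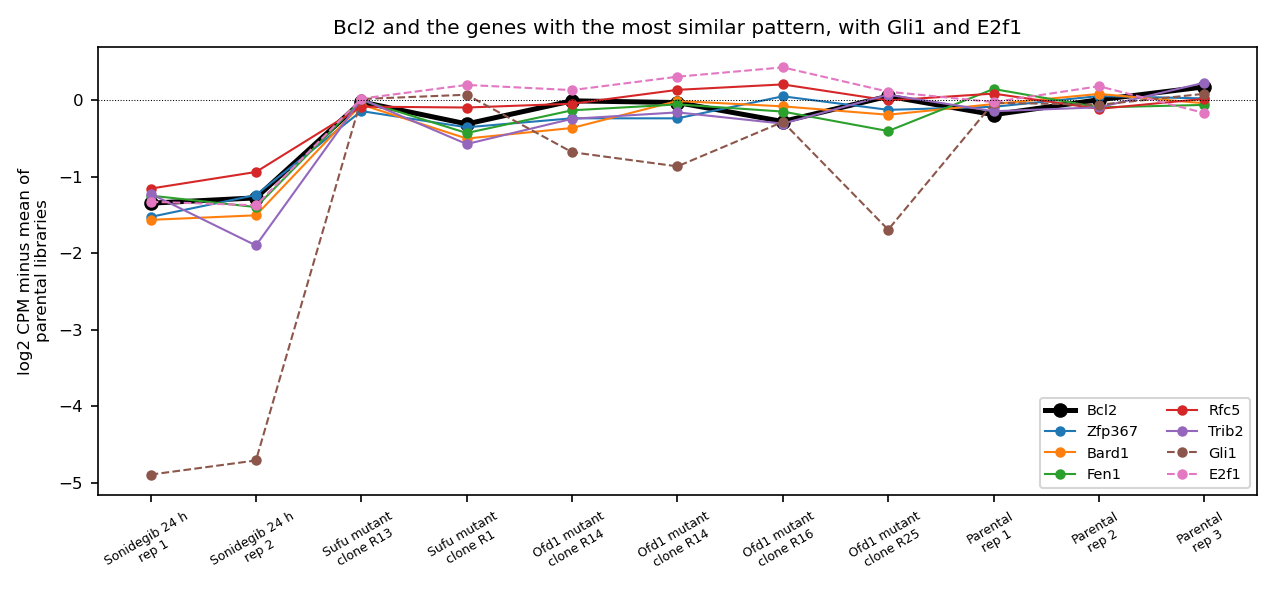
Log2 CPM of Bcl2 (thick black line), of the 5 genes with the most similar pattern and of Gli1 and E2f1 (dashed), minus each gene's mean in parental libraries (y axis), in the 11 libraries (x axis). Bcl2 lies more than 1 log2 unit below its parental mean in both sonidegib libraries and near 0 in every clone, while Gli1 is also low in Ofd1 clone R25.

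Mcl1, a survival protein of short life, was the most abundant of the survival transcripts and the steadiest of the 10. It stood at 238 CPM in both sonidegib libraries, 305 and 288 CPM in Sufu clones R13 and R1, and 317, 247, 271 and 285 CPM in Ofd1 replicates 1 to 4. Parental replicates 1, 2 and 3 held 284, 262 and 285 CPM. Both sonidegib libraries lay just under the others, and the highest library was 1.34 times the lowest. After sonidegib the log2 difference was -0.22 ± 0.19 (adjusted p = 0.578). Against sonidegib it was 0.32 ± 0.29 in Sufu mutants (adjusted p = 0.615) and 0.24 ± 0.18 in Ofd1 mutants (adjusted p = 0.386).

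Bcl2l1, whose product Bcl-xL supports the survival of neurons, stood at 67.0 and 72.5 CPM after sonidegib and 72.6 and 83.3 CPM in Sufu clones R13 and R1. The Ofd1 libraries held 62.9 and 55.1 CPM for R14, 55.5 CPM for R16 and 46.8 CPM for R25, and parental replicates 1, 2 and 3 held 71.0, 62.1 and 64.5 CPM. The Ofd1 libraries were the low end and the Sufu libraries the high end. Ofd1 and Sufu mutants did not overlap, with a log2 difference of -0.51 ± 0.15 (adjusted p = 0.445). Against parental cells the difference was -0.26 ± 0.12 in Ofd1 mutants (adjusted p = 0.399) and 0.24 ± 0.14 in Sufu mutants (adjusted p = 0.634).

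Bcl2l2, which codes for the survival protein Bcl-w, was likewise lowest in the Ofd1 mutants. It stood at 50.8 and 43.4 CPM after sonidegib and 57.3 and 51.1 CPM in R13 and R1. The Ofd1 libraries held 41.4 and 39.2 CPM for R14, 34.2 CPM for R16 and 40.4 CPM for R25, and parental replicates 1, 2 and 3 held 44.9, 49.1 and 54.5 CPM. Each Ofd1 library lay below every other library. The log2 difference of Ofd1 mutants was -0.35 ± 0.12 against parental cells (interval -0.63 to -0.08, adjusted p = 0.247) and -0.49 ± 0.14 against Sufu mutants (adjusted p = 0.431). Against sonidegib it was -0.27 ± 0.19 (adjusted p = 0.351), and the same comparison gave -0.34 ± 0.18 for Bcl2l1 (adjusted p = 0.256). For Sufu mutants against sonidegib the Bcl2l2 difference was 0.21 ± 0.31 (adjusted p = 0.767), and 0.082 without sonidegib replicate 2. In the GENCODE annotation an exon of Gm20521 overlaps Bcl2l2 on the same strand, so reads of these 2 genes may not have been told apart.

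Counted per kb of the longest coding transcript, so that genes can be set beside each other, Mcl1 made up 55.9% to 61.5% of the survival transcripts in all 11 libraries. Bcl2 made up 7.72% and 8.04% of them after sonidegib and 14.7% and 12.6% in R13 and R1. Its share was 15.2%, 17.9%, 14.8% and 17.6% in Ofd1 replicates 1 to 4, and 14.2%, 17.0% and 17.5% in parental replicates 1, 2 and 3. The sonidegib pair was the low end without overlap. The 4 survival genes summed to 118 and 119 CPM per kb after sonidegib, 155 and 149 in Sufu mutants, 127 to 151 in Ofd1 mutants and 137 to 149 in parental cells.

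**Figure D3:**
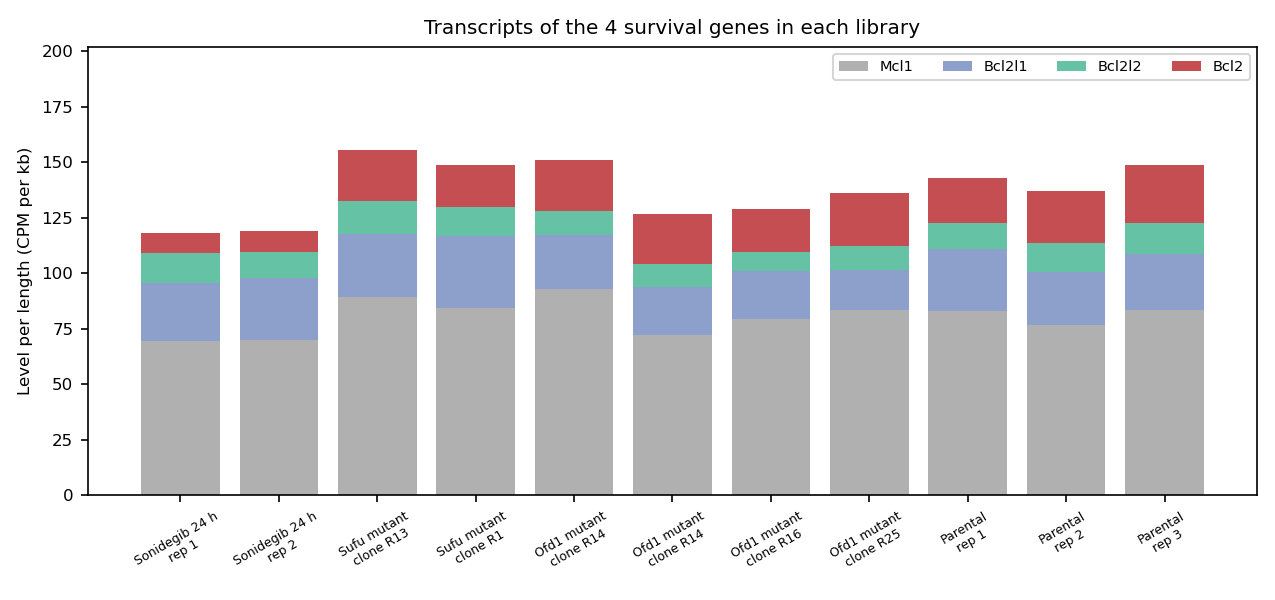
Stacked levels of the 4 survival genes (y axis, CPM per kb of transcript, from 0) in each of the 11 libraries (x axis), with Mcl1 at the bottom, then Bcl2l1, Bcl2l2 and Bcl2 on top. The sums are 118 and 119 CPM per kb in the sonidegib libraries and 127 to 155 in the others, and the Bcl2 segment is thinnest after sonidegib.

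Bax, a pore former that moves from the cytosol to mitochondria, was even in all libraries but 1. It stood at 52.6 and 119 CPM in sonidegib replicates 1 and 2, and at 51.4 and 46.1 CPM in Sufu clones R13 and R1. In Ofd1 mutants it was at 61.2 and 55.5 CPM for R14, 54.1 CPM for R16 and 49.8 CPM for R25, and parental replicates 1, 2 and 3 held 54.6, 51.9 and 55.1 CPM. The value of 119 CPM belongs to the library whose levels fell off with transcript length, and the Bax transcript of 867 bases is the shortest of the 10. The log2 difference after sonidegib was 0.66 ± 0.33 (adjusted p = 0.407). It was -0.06 without sonidegib replicate 2 and 1.10 without replicate 1, each from a single sonidegib library. With the length trend removed it was 0.11 (adjusted p = 0.741). Against sonidegib, Bax was at -0.62 ± 0.30 in Ofd1 mutants (adjusted p = 0.207) and -0.80 ± 0.43 in Sufu mutants (adjusted p = 0.437). Without sonidegib replicate 2 these differences were 0.05 and -0.12, and without replicate 1 Bax in Ofd1 mutants was at -1.10. An exon of Gm45808 overlaps Bax on the same strand.

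The ratio of Bcl2 to Bax counts was 1.25 in sonidegib replicate 1 and 0.580 in replicate 2. It was 3.19 and 2.91 in R13 and R1, 2.54 to 3.47 in the Ofd1 libraries and 2.68 to 3.41 in parental cells. Sonidegib replicate 1, in which Bax was at the parental level, therefore also had a lower ratio than each of the other 9 libraries.

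Bak1, the pore former that sits in the mitochondrial membrane, stood at 56.0 and 74.0 CPM after sonidegib and 42.0 and 47.0 CPM in R13 and R1. Among Ofd1 mutants it was at 55.6 and 81.0 CPM for R14, 81.7 CPM for R16 and 53.4 CPM for R25, and parental replicates 1, 2 and 3 held 59.7, 60.6 and 73.4 CPM. The Sufu clones were the low end without overlap, and the R14 pair was nearly as far apart as the 4 Ofd1 libraries together. The log2 difference of Sufu mutants was -0.54 ± 0.16 against parental cells (interval -0.93 to -0.14, adjusted p = 0.438) and -0.54 ± 0.31 against sonidegib (adjusted p = 0.471; -0.34 without sonidegib replicate 2). Ofd1 mutants differed from Sufu mutants by 0.60 ± 0.22 (adjusted p = 0.512). Ggnbp1, which overlaps Bak1 on the opposite strand, was at 0.106 to 1.12 CPM, far under Bak1.

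Bcl2l11 codes for Bim, a BH3-only protein that binds all survival members. It stood at 73.2 and 51.2 CPM in sonidegib replicates 1 and 2 and 30.6 and 35.8 CPM in R13 and R1. Ofd1 mutants held 36.8 and 28.2 CPM for R14, 47.6 CPM for R16 and 39.9 CPM for R25, and parental replicates 1, 2 and 3 held 51.1, 56.9 and 46.7 CPM. Both Sufu libraries lay below all parental and sonidegib libraries, and of the Ofd1 libraries R16 overlapped the parental ones. Against parental cells the log2 difference was -0.64 ± 0.17 in Sufu mutants (interval -1.04 to -0.23, adjusted p = 0.382) and -0.44 ± 0.18 in Ofd1 mutants (interval -0.84 to -0.03, adjusted p = 0.325). After sonidegib it was 0.27 ± 0.24 (adjusted p = 0.588), 0.48 without replicate 2 and -0.05 without replicate 1.

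Against sonidegib, Bcl2l11 was at -0.90 ± 0.34 in Sufu mutants (adjusted p = 0.324) and -0.70 ± 0.25 in Ofd1 mutants (adjusted p = 0.124). With the length trend removed, a setting chosen after seeing the data, the Ofd1 difference was -0.97 (edgeR adjusted p = 0.0287). The share of all genes called in that setting is not given here. The ratio of Bcl2 to Bcl2l11 counts was 0.895 and 1.34 after sonidegib, 5.35 and 3.75 in R13 and R1, 2.88 to 5.79 in Ofd1 libraries and 2.86 to 4.02 in parental cells. The sonidegib pair was again apart from the other libraries, and the clones overlapped parental cells.

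Bbc3 codes for Puma, the BH3-only protein that p53 induces, and had the lowest mean CPM of the 10 over all libraries (10.5 CPM). In R1 it was above Bad (17.6 against 14.1 CPM). Per kb it was above Bcl2l11 in the Sufu mean (7.31 against 6.60 CPM per kb). It stood at 13.8 and 11.7 CPM after sonidegib and 8.93 and 17.6 CPM in R13 and R1. The Ofd1 libraries held 7.53 and 10.4 CPM for R14, 13.5 CPM for R16 and 6.19 CPM for R25, and parental replicates 1, 2 and 3 held 7.98, 8.81 and 9.42 CPM. The sonidegib pair lay above the parental libraries, and neither clone class was separate from them. The log2 difference was 0.54 ± 0.30 after sonidegib (adjusted p = 0.431). It was 0.60 ± 0.33 in Sufu mutants (adjusted p = 0.610), and 0.03 without R1. Ofd1 mutants differed by -0.51 ± 0.38 from Sufu mutants (adjusted p = 0.725) and by -0.44 ± 0.35 from sonidegib (adjusted p = 0.429). Trp53, which codes for p53, stood at 114 and 153 CPM after sonidegib, 143 and 128 CPM in R13 and R1, 112 to 129 CPM in Ofd1 mutants and 121 to 135 CPM in parental cells.

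The Bcl2l11 and Bbc3 promoters are shown because Foxo factors are known to induce both genes, and because theirs are the windows, 2 of 16, that hold the Foxo letters GTAAACA or TGTTTAC, given in capitals. These letters, which occur in 3.17% of all windows and overlap no GC box here, were chosen after the windows had been read. The Bcl2l11 window is chr2:128125788-128126037 on the plus strand, with the match starting 227 bases before the RefSeq start (GRCm38.p6).
Bcl2l11: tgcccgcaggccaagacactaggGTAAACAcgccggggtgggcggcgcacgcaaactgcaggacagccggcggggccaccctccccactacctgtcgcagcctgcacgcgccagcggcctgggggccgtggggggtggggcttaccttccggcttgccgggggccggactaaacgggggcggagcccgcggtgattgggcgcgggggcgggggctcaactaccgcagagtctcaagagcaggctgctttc
The Bbc3 window is chr7:16310011-16310260 on the plus strand, with the match starting 167 bases before the start.
Bbc3: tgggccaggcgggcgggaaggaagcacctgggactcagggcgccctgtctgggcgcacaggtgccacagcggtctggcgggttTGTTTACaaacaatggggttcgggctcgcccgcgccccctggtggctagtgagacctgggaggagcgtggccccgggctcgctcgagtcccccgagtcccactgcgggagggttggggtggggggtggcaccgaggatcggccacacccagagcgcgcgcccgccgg
A match is a run of letters and was not tested as a site. The Foxo3 transcript stood at 54.9 and 5.37 CPM in sonidegib replicates 1 and 2, 35.1 and 56.3 CPM in R13 and R1, 39.3 to 51.5 CPM in Ofd1 mutants and 30.2 to 52.6 CPM in parental cells. Foxo1 stood at 28.2 and 19.3 CPM in sonidegib replicates 1 and 2, below all other libraries, with 31.9 and 51.0 CPM in R13 and R1, 33.3 to 50.8 CPM in Ofd1 mutants and 30.1 to 42.1 CPM in parental cells. Its log2 difference in Ofd1 mutants against sonidegib was 0.78 ± 0.26, called by DESeq2 (adjusted p = 0.0429) and not by edgeR (adjusted p = 0.108). Over the alternatives the difference ran from 0.23 to 1.08. It was also not called with the length trend removed or with the R14 libraries summed.

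Bid, a BH3-only protein that caspase 8 activates by cleavage, stood at 45.0 and 62.5 CPM after sonidegib and 37.6 and 33.3 CPM in R13 and R1. The Ofd1 libraries held 44.5 and 52.4 CPM for R14, 32.5 CPM for R16 and 25.8 CPM for R25, and parental replicates 1, 2 and 3 held 37.996, 32.5 and 40.6 CPM. The sonidegib pair lay above the parental and Sufu libraries, and the Ofd1 clones were spread on both sides of the parental ones. The log2 difference was 0.53 ± 0.24 after sonidegib (interval -0.03 to 1.09, adjusted p = 0.368), and 0.26 without replicate 2. Against sonidegib it was -0.59 ± 0.33 in Sufu mutants (adjusted p = 0.456) and -0.46 ± 0.31 in Ofd1 mutants (adjusted p = 0.343). Without sonidegib replicate 2 these were -0.35 in Sufu mutants and -0.23 in Ofd1 mutants.

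Bad, a BH3-only protein that phosphorylation by Akt keeps inactive, stood at 14.8 and 43.2 CPM in sonidegib replicates 1 and 2. Sufu clones R13 and R1 held 22.4 and 14.1 CPM, and the Ofd1 libraries held 20.3 and 20.7 CPM for R14, 16.5 CPM for R16 and 26.4 CPM for R25. Parental replicates 1, 2 and 3 held 16.5, 15.5 and 25.7 CPM. As with Bax, sonidegib replicate 2 was far above all other libraries and replicate 1 was not. The log2 difference after sonidegib was 0.59 ± 0.47 (adjusted p = 0.553), and -0.41 without replicate 2. Against sonidegib it was -0.65 ± 0.57 in Sufu mutants (adjusted p = 0.608; 0.30 without sonidegib replicate 2) and -0.45 ± 0.40 in Ofd1 mutants (adjusted p = 0.467; 0.49 without it). Without sonidegib replicate 1 the Ofd1 difference was -1.04, from the library that stood apart. Gpr137 overlaps Bad on the opposite strand and held 24.0 and 40.0 CPM in sonidegib replicates 1 and 2, against 15.5 to 21.9 CPM in all other libraries. Whether counting used the strand is not given in the sources used here, so reads of Bad and Gpr137 may not have been told apart.

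The difference between the sonidegib libraries followed transcript length for most of the 10 genes. Replicate 2 exceeded replicate 1 by 1.17 (log2) for Bax, where the trend over all genes of that length was 1.01. For Bcl2l11, at 5036 bases, the difference was -0.52 and the trend -0.45. Bcl2 has the longest transcript, 7191 bases, and its difference was 0.07 while the trend was -0.74. Bad differed by 1.55 at a trend of 0.59, and Bbc3 by -0.23 at a trend of 0.46. The other 5 genes lay at most 0.17 from the trend.

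**Figure D4:**
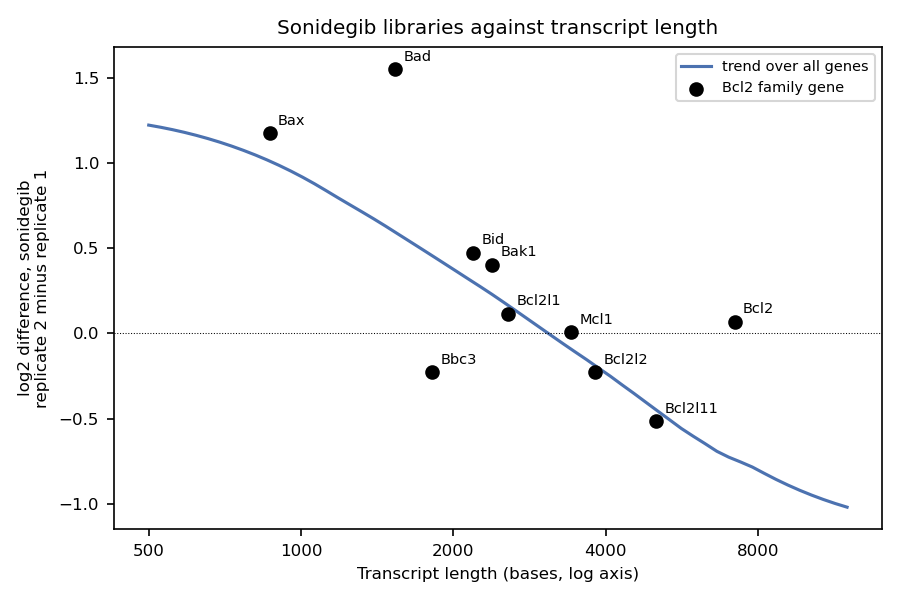
Log2 difference of sonidegib replicate 2 minus replicate 1 (y axis) for each Bcl2 family gene (points) against the length of its longest coding transcript (x axis, bases, log scale), with the trend over all genes as a line. Bax lies near the line at 1.17, whereas Bcl2 lies above it at 0.07 where the line is at -0.74.

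Taken by comparison, edgeR called 0 of the 10 genes after sonidegib against parental cells, where 0.0652% of all genes were called (9 of 13809). At an unadjusted p under 0.05 there was 1 of the 10, Bcl2, beside 14.04% of all genes, and DESeq2 called 1, Bcl2, beside 5.45% of all genes. The groups did not overlap for 4 of the 10, Bid and Bbc3 above and Bcl2 and Mcl1 below, a share close to the 34.3% of all genes. The median log2 difference of the 10 was 0.17, and that of all genes 0.04. The difference was above 0 for 7 of the 10, all but Bcl2, Mcl1 and Bcl2l2, beside 52.4% of all genes. Of these, Bak1 was at 0.006 and Bcl2l1 at 0.08. Bax and Bad fell below 0 without sonidegib replicate 2. Bak1 in sonidegib replicate 1, at 56.0 CPM, was also below each parental library (59.7 to 73.4 CPM).

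In Sufu mutants against parental cells edgeR called 0 of the 10 and 0% of all genes, with 2 of the 10 and 9.68% of all genes at an unadjusted p under 0.05. DESeq2 called 0 of the 10 and 2.19% of all genes. The groups did not overlap for 5 of the 10, with Bcl2l1 and Mcl1 above and Bax, Bak1 and Bcl2l11 below, beside 26.6% of all genes. The median log2 difference of the 10 was -0.07, and that of all genes 0.00430.

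In Ofd1 mutants against parental cells edgeR and DESeq2 called 0 of the 10, with 2 of the 10 at an unadjusted p under 0.05 (Bcl2l2 and Bcl2l11), beside 13.8% of all genes. EdgeR called 0.363% of all genes and DESeq2 5.80%. Only Bcl2l2 did not overlap between the groups, 1 of the 10 against 13.3% of all genes. The median was 0.03 for the 10 and 0.00794 for all genes. Both clone classes were compared with the same parental libraries.

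Ofd1 against Sufu mutants is the comparison of the clone classes. EdgeR and DESeq2 called 0 of the 10, with 3 at an unadjusted p under 0.05 (Bcl2l1, Bcl2l2 and Bak1), beside 8.93% of all genes. EdgeR called 0.00713% of all genes and DESeq2 2.07%. These 3 genes were also those without overlap, Bak1 higher and Bcl2l1 and Bcl2l2 lower in Ofd1 mutants, beside 18.3% of all genes. The median was 0.10 for the 10 and -0.00326 for all genes.

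Of the comparisons with sonidegib-treated cells, that of the Sufu mutants gave 0 of the 10 calls by edgeR, where 0.110% of all genes were called. There were 2 at an unadjusted p under 0.05 (Bcl2 and Bcl2l11), beside 14.02% of all genes, and 1 by DESeq2 (Bcl2), beside 5.66%. The groups did not overlap for 8 of the 10, with all 4 survival genes above and Bax, Bak1, Bid and Bcl2l11 below, beside 49.4% of all genes. Some of these gaps were very narrow. Bcl2l1 was at 72.59 CPM in R13 against 72.55 CPM in sonidegib replicate 2, and Bcl2l2 at 51.1 CPM in R1 against 50.8 CPM in sonidegib replicate 1. Bax was at 51.4 CPM in R13 against 52.6 CPM in sonidegib replicate 1. That of the Ofd1 mutants gave 1 of the 10, Bcl2, where 6.42% of all genes were called. There 2 of the 10 had an unadjusted p under 0.05, beside 28.7% of all genes, and DESeq2 called 1, beside 18.3%. The groups did not overlap for 5 of the 10, with Bcl2 and Mcl1 above and Bcl2l1, Bcl2l2 and Bcl2l11 below, beside 38.4% of all genes. The medians were -0.24 in Sufu mutants, -0.03 over all genes there, -0.39 in Ofd1 mutants and -0.01 over all genes there.

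**Figure D5:**
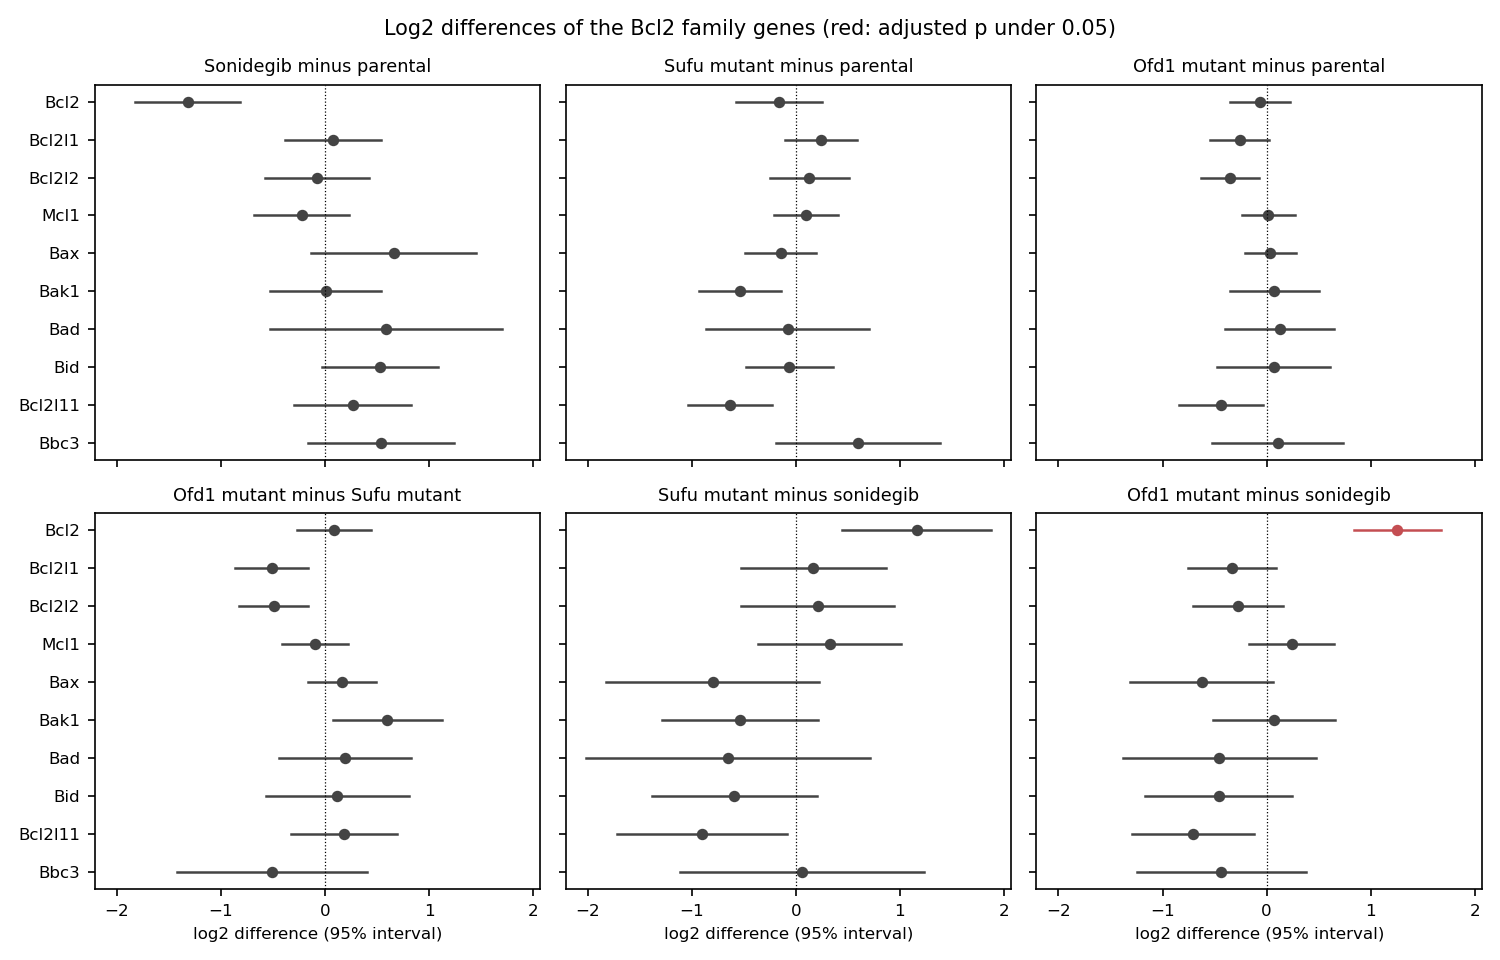
Log2 difference of each Bcl2 family gene (points, x axis) with its 95% interval (lines) in the 6 comparisons, each named above its panel with the first group minus the second. The only red point, adjusted p under 0.05, is Bcl2 in Ofd1 mutants minus sonidegib at 1.26, and most other intervals cross 0.

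Among the other members of the Bcl2 family, 11 of 16 listed genes were tested in each comparison. Those called were Bmf and Bcl2l12, both in Ofd1 mutants against sonidegib, where edgeR called 6.42% of all genes. There 5 of the 11 had an unadjusted p under 0.05, beside 28.7% of all genes, and DESeq2 called 3, beside 18.3%. In the other 5 comparisons edgeR called 0, beside 0% to 0.363% of all genes. There were 0 to 3 at an unadjusted p under 0.05, beside 8.93% to 14.04% of all genes, and 0 to 2 by DESeq2, beside 2.07% to 5.80%. Bmf, a BH3-only gene, stood at 62.4 and 23.4 CPM after sonidegib and 7.40 and 11.03 CPM in R13 and R1, at 10.6 to 15.8 CPM in the Ofd1 libraries, and at 12.7 to 25.3 CPM in parental cells. Its mean was 12.8 ± 2.56 CPM (SD) in Ofd1 mutants (n = 4), against 42.9 ± 27.6 CPM (SD) in sonidegib-treated cells (n = 2). The log2 change was -1.75 ± 0.38 (SE, adjusted p = 0.0382). Bcl2l12 was at 11.05 ± 1.24 CPM against 27.9 ± 8.20 CPM in the same groups, a log2 change of -1.33 ± 0.24 (adjusted p = 0.0264). Both calls were lost without Ofd1 replicate 1, 2 or 3, and that of Bmf also without Ofd1 replicate 4 (adjusted p up to 0.112). Both were also lost with the R14 libraries summed as 1 sample. The Bmf call was also lost without sonidegib replicate 1, at -0.87, and the Bcl2l12 call without sonidegib replicate 2, at -1.01. Hrk, a BH3-only gene of neurons, stood at 40.5 and 48.9 CPM for R14, 103 CPM for R16 and 52.2 CPM for R25, against 135, 131 and 151 CPM in parental cells, without overlap. Its log2 difference was -1.18 ± 0.29, called by DESeq2 (adjusted p = 0.00372) and not by edgeR (adjusted p = 0.135).

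Of the 22 genes of the apoptosome and caspases, 21 were tested. EdgeR called 0 of them, beside 0% to 0.363% of all genes, except in Ofd1 mutants against sonidegib. There it called 2 higher and 1 lower, beside 6.42% of all genes. In that comparison 4 of the 21 had an unadjusted p under 0.05, beside 28.7% of all genes, and DESeq2 called 4, beside 18.3%, so the list did not exceed the share of all genes at an unadjusted p. In the other 5 there were 2 or 3 at an unadjusted p under 0.05, beside 8.93% to 14.04% of all genes, and DESeq2 called 0 to 2, beside 2.07% to 5.80%. Casp6, an executioner caspase, was lower in Ofd1 mutants, at 6.54 ± 2.77 CPM against 24.6 ± 6.04 CPM after sonidegib (log2 change -1.90 ± 0.38, adjusted p = 0.0322). Birc5, which codes for survivin, a protein of dividing cells, was higher at 75.8 ± 10.5 CPM against 37.1 ± 8.52 CPM (log2 change 1.04 ± 0.22, adjusted p = 0.0375). Parp1, a caspase substrate in DNA repair, was higher at 379.6 ± 14.9 CPM against 209 ± 12.4 CPM (log2 change 0.87 ± 0.17, adjusted p = 0.0289). The calls of all 3 were lost without sonidegib replicate 2 or Ofd1 replicate 1, 2 or 3, with adjusted p up to 0.134, and those of Birc5 and Parp1 also without Ofd1 replicate 4. All 3 were also lost with the R14 libraries summed. After sonidegib against parental cells, Casp6 was at 1.33 ± 0.37 (adjusted p = 0.220) and Birc5 at -1.09 ± 0.23 (adjusted p = 0.130). DESeq2 called both, Casp6 with an adjusted p of 0.0312 and Birc5 with 0.00103. Of the 8 death receptor genes, 7 were tested and 0 were called by edgeR in any comparison, beside 0% to 6.42% of all genes. There were 0 to 2 at an unadjusted p under 0.05, beside 8.93% to 28.7% of all genes, and 0 to 2 called by DESeq2, beside 2.07% to 18.3%. Tradd, an adaptor of the tumour necrosis factor receptor, had a log2 difference of -1.13 ± 0.45 in Sufu mutants against sonidegib (adjusted p = 0.343). Tnfrsf21, death receptor 6, was at -1.10 ± 0.32 in Ofd1 mutants against sonidegib (adjusted p = 0.0791).

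Of 16 listed regulators of the family, 14 or 15 were tested. Over all genes, edgeR called 0.0652% after sonidegib against parental cells. Against sonidegib it called 0.110% in Sufu mutants and 6.42% in Ofd1 mutants. EdgeR called Gli1 lower after sonidegib against parental cells (log2 change -4.80 ± 0.24, adjusted p = 0.00287). Gli1 was called higher against sonidegib in Sufu mutants (4.85 ± 0.34, adjusted p = 0.00935) and in Ofd1 mutants (4.01 ± 0.43, adjusted p = 0.00818). Gli1 lost its call after sonidegib without parental replicate 3, at -4.78 with an adjusted p of 0.0678, and in Sufu mutants without sonidegib replicate 1 or 2 (adjusted p up to 0.229). E2f1, a factor of the entry into S phase that can induce BH3-only genes, was at 37.1 and 35.9 CPM after sonidegib, 94.5 and 107 CPM in R13 and R1, 101 to 125 CPM in Ofd1 mutants and 82.9 to 106 CPM in parental cells. It was called in Ofd1 mutants against sonidegib (log2 change 1.61 ± 0.19, adjusted p = 0.0106), and was at -1.36 ± 0.21 after sonidegib against parental cells (adjusted p = 0.0847), where DESeq2 called it (adjusted p = 2.22e-06). DESeq2 also called E2f1 in Sufu mutants against sonidegib, at an edgeR log2 difference of 1.47 ± 0.30 (adjusted p = 0.139 by edgeR and 0.00176 by DESeq2). Gli2, the other activating Gli factor, was at 142 and 77.9 CPM after sonidegib, 238 and 188 CPM in R13 and R1, 255 to 609 CPM in Ofd1 mutants and 250.2 to 334 CPM in parental cells. Its log2 difference was -1.47 ± 0.32 after sonidegib (adjusted p = 0.141) and 1.70 ± 0.45 in Ofd1 mutants against sonidegib (adjusted p = 0.0665), and DESeq2 called both, with adjusted p of 0.00142 and 0.00146. After sonidegib 4 regulators had an unadjusted p under 0.05, beside 14.04% of all genes, and DESeq2 called 3, beside 5.45%. Against sonidegib there were 4 in Sufu mutants, beside 14.02% of all genes, with 2 by DESeq2, beside 5.66%, and 7 in Ofd1 mutants, beside 28.7%, with 5 by DESeq2, beside 18.3%. In the clones against parental cells, and in Ofd1 against Sufu mutants, edgeR called 0 of the regulators, beside 0% to 0.363% of all genes. There were 1 or 2 at an unadjusted p under 0.05, beside 8.93% to 13.8% of all genes, and 0 by DESeq2, beside 2.07% to 5.80%. Among the marker lists, 1 of 6 granule progenitor and 2 of 3 astrocyte markers tested were called in Ofd1 mutants against sonidegib, beside 6.42% of all genes. These were Barhl1 (-1.68, adjusted p = 0.0264), Slc1a3 (-1.09, adjusted p = 0.0198) and Gfap (-3.04, adjusted p = 0.0352), all lower by edgeR. The progenitor markers Zic1 (622 against 591 CPM) and Neurod1 (29.2 against 23.6 CPM) were higher in mean there and were not called. Gfap was also called lower in Sufu mutants against sonidegib (-3.89, adjusted p = 0.0484), 1 of 3 astrocyte markers tested, beside 0.110% of all genes. The astrocyte marker S100b was higher in mean there, at 18.6 against 10.2 CPM, with overlap. The calls of Barhl1 and Gfap in Ofd1 mutants were lost without sonidegib replicate 2 or Ofd1 replicate 2 or 3, Gfap also without Ofd1 replicate 1, Barhl1 also without Ofd1 replicate 4, and that of Slc1a3 without Ofd1 replicate 1, 2 or 3. Those of Gfap and Slc1a3 were also lost with the R14 libraries summed. That of Gfap in Sufu mutants was lost without either sonidegib library (adjusted p up to 0.274).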

How the data were processed

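The deposited table holds raw counts of reads per gene symbol, 1 column per library, made by the authors. STAR, DESeq2 and the build mm9 are named in the submitters' processing notes. Their versions, the counter, the annotation and the strand setting were not given in the sources used here. Per the labels' protocols, stranded poly(A) libraries started from 500 ng of RNA, with single-end reads of 75 bp in a single run. An entry with no gene name, 0.0131% to 0.0192% of counts, was left out. Library totals were 24308451 to 38241595.

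Groups were compared pairwise with edgeR 4.0.16 in R 4.3.3 (quasi-likelihood, robust, TMM, filterByExpr), two-sided. A gene was called at a Benjamini-Hochberg adjusted p under 0.05 over all genes tested. SE is the log2 difference over the root of F. After ±, log2 differences carry the SE and CPM means the SD. CPM uses TMM-scaled library sizes. DESeq2 1.42.0, other scaling and filters, a fit of all 11 libraries, libraries left out, the summed R14 pair and a replicate block were the alternatives. Removing each library's loess trend on transcript length (GENCODE M21 lengths, GRCm38) was chosen after seeing the data. Simulated data with known changes were used to test these fits. Where 1 library is left in a group, that library is assumed to vary like the other group.

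The 10 genes and the lists were chosen with earlier results of these data known. From the other lists every called gene and up to 4 per comparison with the largest difference, at least 1 CPM and no overlap were eligible to be named. Foxo1 and Foxo3 were added after their values were seen. Promoter windows come from RefSeq (GRCm38.p6) and matched all 10 genes by symbol, in 16 windows. No library repeated another of its own group: chi-square per degree of freedom between libraries of a group was 19.1 to 276. Libraries of different groups were not compared in this way.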

Additional observations from a re-analysis of the deposited data

Results flagged for a closer look

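In the 4 Ofd1 libraries, 90 genes (the listed genes tested against parental cells, and the others whose levels are given) were searched for a library whose gap to its nearest neighbour exceeded Dixon's 95% critical value for 4 samples, as a share of the whole range, which chance alone gives in about 1 in 20 groups. The search set 6 genes apart, and 0 of the 10 Bcl2 family genes. Diablo, which releases caspases from the IAP proteins, stood at 42.3 CPM in clone R25 and at 75.0 to 78.2 CPM in the other 3 libraries, a gap of 0.910 of the range. Tnfrsf21, death receptor 6, stood at 12.98 CPM in R25 and at 25.9 to 28.5 CPM in the others (0.831). Gli2, a Hedgehog transcription factor, stood at 609 CPM in R25 and at 255 to 312 CPM in the others (0.839). Cdh5, an endothelial marker, stood at 12.4 CPM in the second library of R14 and at 1.91 to 3.56 CPM in the others (0.844). Vdac2, a channel of the outer mitochondrial membrane, stood at 109 CPM in the same library and at 95.3 to 96.8 CPM in the others (0.888). Ggnbp1, which overlaps Bak1, stood at 0.783 CPM in R16 and at 0.370 to 0.434 CPM in the others (0.846). Clone R25 was the library set apart for 3 of the 6 genes. A share of 6 in 90 is near the 1 in 20 that chance alone gives, so no trait of R25 is drawn from it. The critical value also assumes 4 independent samples, while 2 of these 4 libraries are of clone R14. Of the 10 Bcl2 family genes, R25 was the lowest Ofd1 library for Bid, Bbc3, Bcl2l1, Bax and Bak1, at 25.8, 6.19, 46.8, 49.8 and 53.4 CPM. It was the highest for Bcl2 and Bad, at 173 and 26.4 CPM.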

How the results depend on the processing

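The call of Bcl2 in Ofd1 mutants against sonidegib held in all alternatives except without Ofd1 replicate 2 and with the length trend removed. Of the 10 genes, DESeq2 and the fit of all 11 libraries called 1 (Bcl2) after sonidegib and 1 (Bcl2) in Sufu mutants against sonidegib, where the main fit called 0. After sonidegib 1 was also called without a low-count filter and 1 inside the libraries close on the second component, and 0 to 2 with a library left out. Members called with a library left out were 0 to 3 in Ofd1 mutants against sonidegib. The counts over all genes depended on the setting, and the cause was not tested. After sonidegib (main 9) they were 723 by DESeq2, 109 without filter, 316 in the fit of all libraries, 1393 inside that set (spread from parental replicates 1 and 2 alone), 68 with the length trend removed and 0 to 3263 with a library left out. In Sufu mutants (main 0) they were 303, 3 without filter, 2 with the length trend removed and 0 to 11. In Ofd1 mutants (main 50) they were 765, 84 without filter, 8 at a mean of at least 5 CPM, 9 in the fit of all libraries, 1 with R14 summed, 0 against parental replicate 3 alone, 86 with the length trend removed and 0 to 329. In Ofd1 against Sufu mutants (main 1) they were 279, 2 without filter, 0 with R14 summed and 0 to 11. Against sonidegib they were 770, 164 without filter, 1117 in the fit of all libraries, 23 with the length trend removed and 0 to 282 in Sufu mutants (main 15), and 2563, 1965 in the fit of all libraries, 256 with R14 summed and 152 to 4806 in Ofd1 mutants (main 900).

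Signs turned round as follows, with the range over libraries left out in turn. After sonidegib, Bax was at -0.058 to 1.10, Bad at -0.41 to 1.13 and Bcl2l11 at -0.053 to 0.48, with Bax and Bad below 0 without sonidegib replicate 2 (and inside the close set, at -0.043 and -0.14) and Bcl2l11 without replicate 1. Against sonidegib, Bad was at -1.26 to 0.30 in Sufu mutants and at -1.04 to 0.49 in Ofd1 mutants, and Bax at -1.10 to 0.054 in Ofd1 mutants, above 0 without sonidegib replicate 2. Bcl2 in Ofd1 mutants was at -0.16 to 0.017 against parental cells, above 0 without parental replicate 3 or Ofd1 replicate 3 (0.000947). Against Sufu mutants, without R1, it turned within -0.050 to 0.24 and Bbc3 within -0.91 to 0.058. Of 22 differences under 0.2 in size, Bcl2 left out, 16 changed sign under some alternative and 0 were called. The sonidegib and parental libraries share replicate numbers 1 and 2 in the labels, but only 2 pairs exist. Their deviations correlated at -0.0882 from the mean of parental replicates 1 and 2 and at 0.249 from the mean of all 3, which does not settle whether the numbers pair the libraries. With the replicate block 97 genes were called after sonidegib and 0 of the 10, with Bcl2 at -1.23. The lowest count of any of the 10 genes was 221, and 2 libraries in a group limit the precision of most differences.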
